A study of Mus musculus with 24 samples.

Results

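The tiles described here are stretches of 100 bp of the mouse genome at which the 12 liver libraries fell into 2 levels of cytosine methylation. The tiles were chosen by the measured values themselves. In the deposited liver table the 12 levels of each tile were sorted, and a tile was kept where 2 neighbouring sorted levels differed by at least 0.25 with at least 3 libraries on each side of that gap. This rule kept 313 of the 819713 liver tiles, or 0.0382%, and they are called split tiles below. A level is the fraction of methylated calls among the reads of a tile and runs from 0 to 1.

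The data came from an enhanced form of reduced representation bisulphite sequencing (RRBS) on C57Bl/6J mice of 24 weeks of age. Liver was measured in 6 male and 6 female mice (n = 12), and brain and heart in 3 males and 3 females each (n = 6 per tissue), with no treatment and no engineered allele named for any of the 24 libraries. The level columns carry running numbers and no mouse number or gender, so no division of the columns was set against gender, litter or any batch, and libraries are named by their running number in the table of their tissue. Each library is one sample of bulk tissue, in which a change in the makeup of cell types and a change of level within a cell type cannot be told apart.

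In RRBS the DNA is cut with restriction enzymes, unmethylated cytosines are converted with bisulphite, and the CpGs near the cut sites are read. Most CpGs of the mammalian genome are methylated, while CpG-rich promoters and active enhancers tend to be unmethylated. In DNA from many cells an intermediate level arises where cells or alleles differ, and C57Bl/6J mice are inbred, so that animals of the strain are nearly identical in sequence. Repeated sequences with many near-identical copies are a known difficulty, since a short read can then be placed at more than 1 position.

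Examples of the split tiles are shown as the plus strand of mm10 in lower case with the CpGs, the positions at which methylation was read, in capitals. They were picked because each of the divisions described below is represented and because the numbers of CpGs range from 1 to 15. Sequences were read from the reference genome (GRCm38), not from the libraries.
Intergenic, 24454 bp from the start of Nolc1, chr19:46100301-46100400: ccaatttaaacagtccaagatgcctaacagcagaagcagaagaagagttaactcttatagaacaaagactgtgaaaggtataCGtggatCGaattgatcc
Scara5 intron 3, chr14:65718101-65718200: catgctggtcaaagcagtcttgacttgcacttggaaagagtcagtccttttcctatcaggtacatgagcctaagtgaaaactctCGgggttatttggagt
Hao1 intron 2, chr2:134545601-134545700: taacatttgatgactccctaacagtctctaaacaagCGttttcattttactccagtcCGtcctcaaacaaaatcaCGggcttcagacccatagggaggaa
Near Cyp7b1, chr3:18246501-18246600: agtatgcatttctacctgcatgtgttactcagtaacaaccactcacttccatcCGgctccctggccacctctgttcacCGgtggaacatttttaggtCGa
Prkce intron 1, chr17:86254301-86254400: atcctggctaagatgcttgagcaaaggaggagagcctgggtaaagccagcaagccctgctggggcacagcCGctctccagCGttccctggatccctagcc
Intergenic, 90144 bp from the start of Cdh17, chr4:11848301-11848400: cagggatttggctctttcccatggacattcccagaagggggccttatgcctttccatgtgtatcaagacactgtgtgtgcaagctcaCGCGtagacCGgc
Abca17 intron 29, chr17:24265301-24265400: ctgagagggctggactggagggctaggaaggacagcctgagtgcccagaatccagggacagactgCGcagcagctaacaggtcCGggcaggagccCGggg
Near Socs2, chr10:95411201-95411300: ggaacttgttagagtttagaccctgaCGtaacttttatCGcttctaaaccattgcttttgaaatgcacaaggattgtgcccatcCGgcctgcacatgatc
Ttll9 coding exon 8, chr2:152991501-152991600: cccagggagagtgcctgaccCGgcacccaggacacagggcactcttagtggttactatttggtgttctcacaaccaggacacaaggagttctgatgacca
Filip1l intron 1, chr16:57391501-57391600: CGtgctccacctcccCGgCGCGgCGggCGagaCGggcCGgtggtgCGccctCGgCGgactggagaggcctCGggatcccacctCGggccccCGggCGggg
Repeat on chromosome 9, chr9:3033301-3033400: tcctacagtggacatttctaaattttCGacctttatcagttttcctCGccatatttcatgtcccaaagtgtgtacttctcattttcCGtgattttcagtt

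Before the split tiles were described, the libraries were compared as a whole. Over all liver tiles the mean level of a library lay between 0.657 and 0.67, the correlation between pairs of libraries across tiles lay between 0.962 and 0.975, and no 2 columns were identical. The libraries fell into 2 sets in their spread. Libraries 1 to 3 and 7 to 9 had 5.83% to 7.55% of their tiles at exactly 0 or 1, and a median distance of 0.047 to 0.05 from the tile's median at tiles of intermediate level. Libraries 4 to 6 and 10 to 12 had 4.40% to 5.74% and 0.042 to 0.0455. Tiles around the starts of hepatocyte genes had mean levels of 0.216 to 0.272 in the liver libraries, 0.697 to 0.746 in brain and 0.605 to 0.637 in heart. Those of heart genes were lowest in heart, at 0.408 to 0.446. Those of brain genes did not mark brain, at 0.305 to 0.336 there and 0.317 to 0.361 in liver. The authors kept tiles with more than 10 reads in each library and below a high percentile of coverage. The read depth of a single tile is otherwise unknown, so no interval could be given for a single level.

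The gap of a split tile had a median of 0.307 and reached 0.885. It was at least 0.3 in 173 tiles, at least 0.4 in 54 and at least 0.5 in 10. The threshold did not lie at a break in the values. An intergenic tile at chr16:18846601-18846700 lay just inside with a gap of 0.25 between libraries at most at 0.312 and at least at 0.562, as did one at chr19:19839501-19839600 between 0.083 and 0.333. Just outside lay chr1:184516001-184516100 with a gap of 0.249 between 0.549 and 0.798, and chr16:24052601-24052700 with a gap of 0.248 between 0.419 and 0.667.

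The libraries did not divide in all possible ways equally often. With 6 libraries on each side there were 175 tiles, and with 3 below and 9 above there were 70, while the other sizes, 4, 5, 7, 8 or 9 below, had 7 to 20 tiles each. Altogether 81 different divisions occurred, of which 61 occurred once. At 160 tiles (51.1%) libraries 1 to 6 were the low side and libraries 7 to 12 the high side. At 50 tiles (16.0%) libraries 7, 10 and 12 were low and the other 9 high. The next most frequent divisions had 5 tiles each, namely libraries 7 to 12 low, and libraries 4 to 6 with 10 to 12 low. The remaining 93 tiles (29.7%) fell into 77 divisions with at most 2 tiles each.

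**Figure D1:**
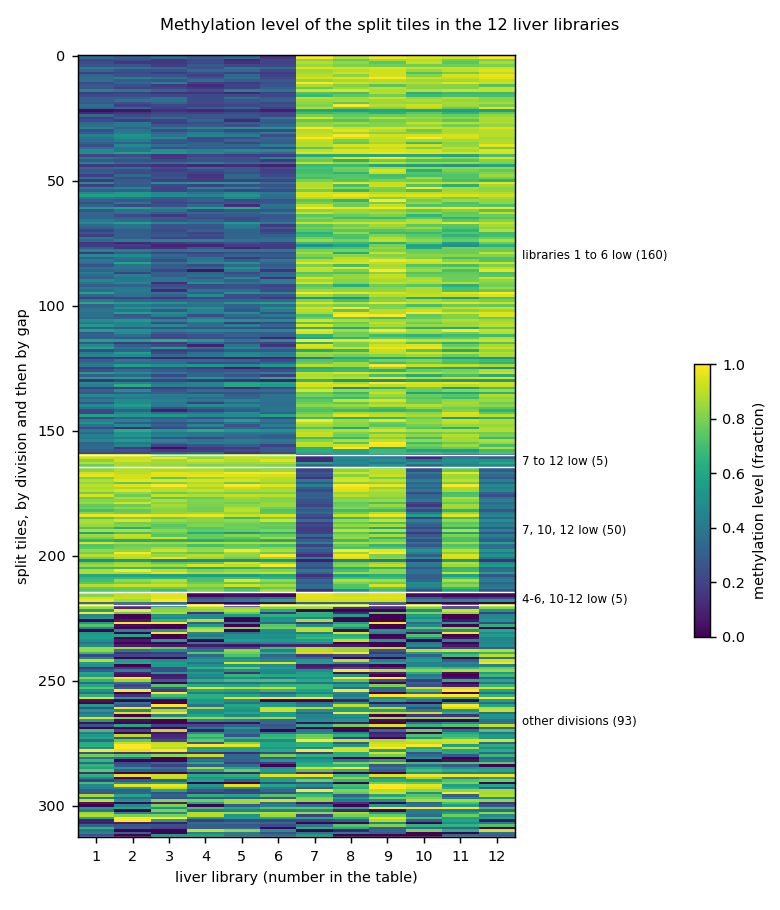
Each of the 313 rows is a split tile, each column a liver library, and the colour gives the methylation level from 0 to 1. White lines separate the divisions: the uppermost 160 tiles are dark in libraries 1 to 6 and light in 7 to 12, the 50 tiles of libraries 7, 10 and 12 form narrow dark columns, and the lowest 93 tiles show no common pattern.

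The same columns therefore moved together at most tiles. Any pair of libraries among 1 to 6 lay on the same side of the gap at 80.8% to 94.9% of the split tiles, and any pair among 7 to 12 at 62.6% to 89.8%. A library of the first set and one of the second shared a side at 9.27% to 39.0%. These shares describe how the tiles were divided and carry no test. Over the 93 tiles of rare divisions the pairs within 1 to 6 had a median of 49.5%, and so did the pairs across the sets. Even there some columns were often together, with libraries 4 and 6 on the same side at 82.8% of the 93 tiles and libraries 6 and 12 at 80.6%.

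**Figure D2:**
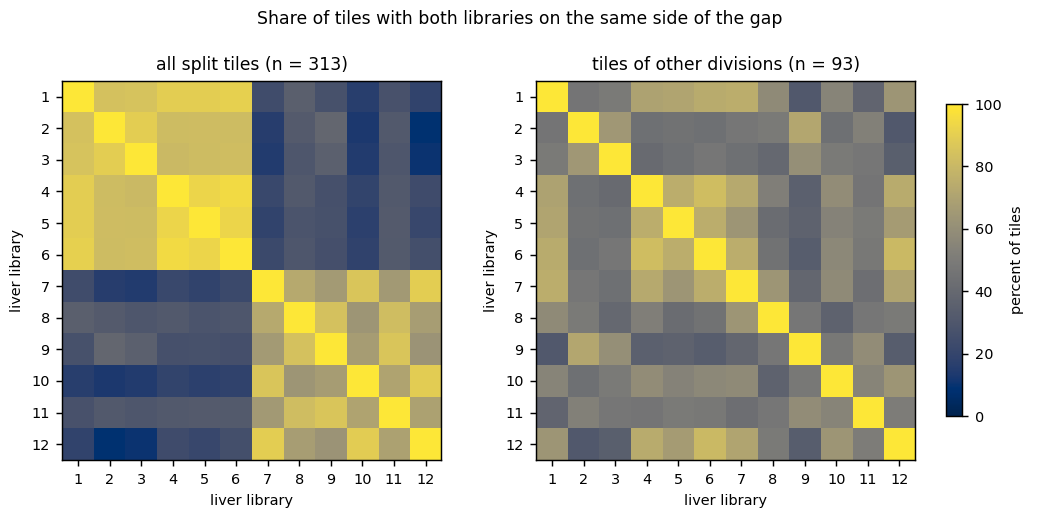
Both axes give the liver library and the colour gives the percentage of tiles at which a pair lay on the same side of the gap, over all 313 split tiles (left) and over the 93 tiles of rare divisions (right). The blocks of libraries 1 to 6 and 7 to 12 stand out on the left and not on the right, where library 6 is most often together with libraries 4 and 12.

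Separations without overlap were also counted over the whole table. Libraries 1 to 6 lay below libraries 7 to 12 at 3623 of all liver tiles (0.442%), and at 3456 tiles (0.422%) when split tiles were left out, of which 507 were separated by at least 0.1. The reverse order held at 802 tiles that were not split (0.0979%), 31 of them by at least 0.1. Libraries 7, 10 and 12 lay below the other 9 at 3631 of all tiles (0.443%). This share cannot be set beside that of libraries 1 to 6, because 3 given libraries are the lowest by order alone more often than 6 are. Outside the split tiles they lay below at 3579 (0.437%) and above more often, at 4333 (0.529%), but by at least 0.1 below at 142 and above at 27. Orders inside the sides were also read within the split tiles, and were not counted over all tiles. The same liver levels set the divisions, so these orders cannot show whether one division follows from another. Among the 160 tiles with libraries 1 to 6 low, libraries 7, 10 and 12 lay below 8, 9 and 11 at 7 tiles and above them at 10. Among the 50 tiles with libraries 7, 10 and 12 low, libraries 1 to 6 lay below libraries 8, 9 and 11 at 1 tile and above them at 3. Library 7 was the lowest of the 12 at 37 of these 50 tiles, library 10 at 10 and library 12 at 3, with any tie given to the lowest number.

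Levels around the starts of marker genes were compared between the sides of the main divisions. Bile duct starts, a list of 5 genes, nearly followed the first division, with 0.215 to 0.228 in libraries 1 to 6 and 0.228 to 0.261 in libraries 7 to 12. Only library 6 was above library 9, by less than 0.001. The mean level over all liver tiles was also mostly lower in libraries 1 to 6, at 0.6567 to 0.6622 against 0.6615 to 0.6698. The mean level around hepatocyte starts was 0.23 to 0.244 in libraries 1 to 6 and 0.216 to 0.272 in 7 to 12, and leukocyte and Kupffer cell starts had 0.719 to 0.751 and 0.71 to 0.775. Endothelial starts had 0.449 to 0.561 and 0.5 to 0.611, and stellate cell starts 0.231 to 0.292 and 0.228 to 0.299. Starts of brain genes had 0.317 to 0.361 in libraries 1 to 6 and 0.334 to 0.353 in 7 to 12. Those of heart genes had 0.61 to 0.647 and 0.626 to 0.641. The ranges of the lists other than bile duct overlapped more widely. In libraries 7, 10 and 12 hepatocyte starts had 0.216, 0.226 and 0.249 and bile duct starts 0.231, 0.261 and 0.26. The part of the cell makeup in the divisions was not tested.

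The 160 tiles with libraries 1 to 6 low lay on all 19 autosomes. The low side reached a median of 0.406 at its highest library and the high side a median of 0.742 at its lowest, so the low libraries were mostly partly methylated rather than unmethylated. At no tile of this division was the whole low side under 0.1, while at 12 tiles the whole high side was above 0.9. The widest gap of the division, 0.58, was at the intergenic tile 24454 bp from the start of Nolc1. Libraries 1 to 6 had levels of 0.222 to 0.333 there and libraries 7 to 12 of 0.913 to 1.0. The adjoining tile at chr19:46100201-46100300 divided the same libraries, at 0.106 to 0.314 and 0.721 to 0.868, although 78.6% of its 31-base words occur more than once in the genome.

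At Gm12216 intron 3 (chr11:53791001-53791100, with 1 CpG) the low side had 0.152 to 0.353 and the high side 0.895 to 1.0. The tile near Khdc1a at chr1:21333901-21334000 had 0.113 to 0.231 against 0.75 to 0.886. A pair of adjoining intergenic tiles near B930092H01Rik had 0.171 to 0.238 against 0.718 to 0.923 (chr9:61305501-61305600) and 0.352 to 0.628 against 0.966 to 1.0 (chr9:61305601-61305700). The gap between the sides thus lay at different levels in these neighbours. Brain and heart had at least 0.931 at the second and were not in their tables at the first.

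Scara5, which encodes a scavenger receptor for ferritin, held the only run of 3 adjoining split tiles, all in intron 3 and some 51 kb from the start. In the first tile of the run, chr14:65718001-65718100, libraries 1 to 6 had 0.177 to 0.283 and libraries 7 to 12 had 0.631 to 0.918. The middle tile, with a single CpG, had 0.186 to 0.278 against 0.78 to 0.844. In the third, chr14:65718201-65718300, the values were 0.227 to 0.353 and 0.844 to 0.953. Brain libraries reached from the gap into the high side in the middle tile, with 0.522 to 0.824, and heart libraries lay inside the gap with 0.558 to 0.716.

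Hao1 encodes the glycolate oxidase of liver peroxisomes. A pair of adjoining tiles in intron 2, 8652 bp and 8552 bp from the start, divided the libraries in the same way. The first had 0.135 to 0.236 in libraries 1 to 6 and 0.742 to 0.91 in libraries 7 to 12, and the second (chr2:134545701-134545800) had 0.114 to 0.208 and 0.481 to 0.819. Brain and heart had medians of 0.83 and 0.798 at the first tile, within the range of the high side. In brain 1 of the 6 libraries was lower than the others at both tiles, at 0.556 and 0.674.

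Within 1000 bp of a start lay 4 tiles of the division (2.5%), against 14.2% of all liver tiles. One lay in the promoter of Amn1, 989 bp upstream (chr6:149189701-149189800), where libraries 1 to 6 had 0.196 to 0.336, libraries 7 to 12 had 0.815 to 0.969, and brain and heart had medians of 0.963 and 0.942. Another (chr18:12713901-12714000) lay 811 bp upstream of the microRNA gene Mir1948 and in intron 6 of Ttc39c, with 0.23 to 0.44 against 0.91 to 1.0. A tile between genes near Nat8, which encodes an N-acetyltransferase, had 10 CpGs, the most of the division (chr6:85843901-85844000). Its libraries had 0.154 to 0.229 and 0.528 to 0.79, and 74.3% of its 31-base words had further copies.

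The reverse order, libraries 7 to 12 low, was found at 5 tiles. The widest gap, 0.417, was in intron 1 of Prkce, the gene of a protein kinase C, with 0.23 to 0.378 in libraries 7 to 12 and 0.795 to 0.95 in libraries 1 to 6. A second tile of the same intron, chr17:86254501-86254600, had 0.115 to 0.531 against 0.815 to 0.951. The tile near Cyp2b13, chr7:26098801-26098900, had 0.109 to 0.481 on the low side, within which libraries 7 and 10 had the lowest levels, 0.115 and 0.109.

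The 50 tiles with libraries 7, 10 and 12 low were spread over 17 chromosomes. None was within 1000 bp of a transcription start, against 14.2% of all liver tiles. The highest of the low libraries had a median of 0.418 and the lowest of the high libraries a median of 0.744, near the values of the first division. At the intergenic tile 90144 bp from Cdh17, with the widest gap (0.528), library 7 had 0.197, library 10 had 0.24 and library 12 had 0.254, and the other 9 libraries had 0.782 to 0.913. In intron 29 of Abca17, the gene of an ABC transporter, the low levels were 0.207, 0.234 and 0.28 and the others 0.758 to 0.90. The tile at chr12:24751801-24751900, 43547 bp from Rrm2, had 0.278, 0.421 and 0.412 in these libraries and 0.889 to 1.0 in the rest. Library 7 was the lowest of the 12 at each of these 3 tiles, and the order of libraries 10 and 12 differed.

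Levels further apart were found where libraries 4 to 6 and 10 to 12 were low. At the Ttll9 tile, which has 1 CpG in a coding exon of a tubulin ligase-like gene, libraries 1, 2, 3, 7, 8 and 9 had 0.919 to 0.964 and the other 6 had 0.0 to 0.034. This gap of 0.885 was the widest of the split tiles. Every brain and every heart library was at 0.0. Zfp879, a zinc finger gene, had a pair of adjoining tiles in the first exon. At chr11:50841401-50841500, 52 bp from the start, the same libraries had 0.817 to 0.958 and the other 6 had 0.012 to 0.041. At chr11:50841301-50841400 they had 0.913 to 0.956 and 0.186 to 0.383. Brain and heart were low at the former, with 0.0 to 0.026 and 0.004 to 0.057. The low liver libraries thus had levels close to those of the other tissues, and the high ones did not. The remaining 2 tiles of the division lay in introns of Ctif and Xkr7 with gaps of 0.277 and 0.267. These sides are the same sets of libraries that differed in their spread over the whole table, with 4.40% to 5.74% of tiles at exactly 0 or 1 on the low side and 5.83% to 7.55% on the high side, and the part of that difference in these 5 tiles was not tested.

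Among the 93 tiles of rare divisions the low side was under 0.1 at 30 tiles and the high side above 0.9 at 15. By comparison these counts were 0 and 1 for libraries 7, 10 and 12. With ties given to the library of the lowest number, library 2 was the lowest of the 12 at 22 of the 93 tiles. Library 3 was the lowest at 16 and the other libraries at 2 to 8 each. Several libraries tied at 0.0 at some of these tiles, so the counts lean towards low numbers. The tiles were richer in repeats, with 59.1% having at least 50 of their bases soft-masked in the genome, against 16.3% of the 160 tiles with libraries 1 to 6 low, 4% of the 50 tiles with libraries 7, 10 and 12 low and 21.1% of all liver tiles. More than 50% of the 31-base words occurred more than once in the genome at 53.8% of the rare tiles, against 6.25%, 4% and, for a sample of 4999 liver tiles, 12.2%. How reads with several matches were placed is not given in the sources used here, and the part of such reads in the divisions was not tested.

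The tile with the widest gap of this kind (0.511) was a repeat at chr9:3033301-3033400 in which every 31-base word had further copies. Libraries 2, 3, 5, 9 and 11 had 0.062 to 0.357 there and the other 7 libraries 0.868 to 0.961. Brain and heart libraries did not divide at this tile, with 0.895 to 0.95 and 0.887 to 0.962. At chr9:3027001-3027100, also a repeat, libraries 2, 5, 8, 9 and 11 had 0.04 to 0.135 and the others 0.466 to 0.626. There 2 of 6 brain libraries (0.048 and 0.114) and 2 of 6 heart libraries (0.111 and 0.089) were low as well, and the others had 0.598 to 0.708 and 0.532 to 0.645.

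Some rare divisions had more than 2 levels. The promoter of 3110070M22Rik, which is also the first exon or intron of Tmem267, held 2 adjoining split tiles. At chr13:119488901-119489000, with 10 CpGs, libraries 1, 7 and 8 had 0.62 to 0.653, libraries 6 and 12 were both at 0.008, and the other 7 had 0.202 to 0.37. The adjoining tile at chr13:119488801-119488900 put the same libraries at the same 3 levels, 0.643 to 0.652, 0.005 and 0.007, and 0.191 to 0.379. In brain, libraries 5 and 6 had 0.006 and 0.009 at the former tile and the other 4 had 0.282 to 0.298. In heart, libraries 5 and 6 had 0.013 and 0.015 and the others 0.252 to 0.383. Brain and heart thus showed the middle and the lowest level, and no library of either reached the highest.

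In the first coding exon of Pprc1, a coactivator gene related to PGC-1, a tile with 13 CpGs (chr19:46056601-46056700, 62 bp from the start) had 0.947 to 1.0 in libraries 3, 8 and 11. Libraries 2 and 10 had 0.0 and 0.071, and the other 7 had 0.375 to 0.531. Brain and heart had at most 0.06 and 0.02. The homeobox gene Hoxb3 (chr11:96346201-96346300, in a coding exon) had 0.833 to 1.0 in libraries 1, 2, 8 and 9, 0.10 and 0.048 in libraries 3 and 11, and 0.324 to 0.513 in the other 6, again with brain and heart near 0. Neither tile holds repeated 31-base words.

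The tile with the most CpGs, 15, lay in intron 1 of Filip1l and of Cmss1. Libraries 5, 11 and 12 had 0.717, 0.692 and 0.90, and the other 9 had 0.165 to 0.333. In brain, libraries 5 and 6 had 0.688 and 0.865 and the others 0.174 to 0.40. Heart had 0.314 to 0.589 with no gap of 0.25, and 74.3% of the 31-base words of the tile had further copies. Intron 1 of Prkg1, the gene of a cGMP-dependent protein kinase, held a tile with 9 CpGs made up wholly of repeated sequence (chr19:31723301-31723400). Libraries 4, 5, 6 and 12 had 0.317 to 0.54 there, and the other 8 had 0.0 to 0.025. Brain had 0.0 to 0.483 and heart 0.024 to 0.349 without a gap of that size.

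**Figure D3:**
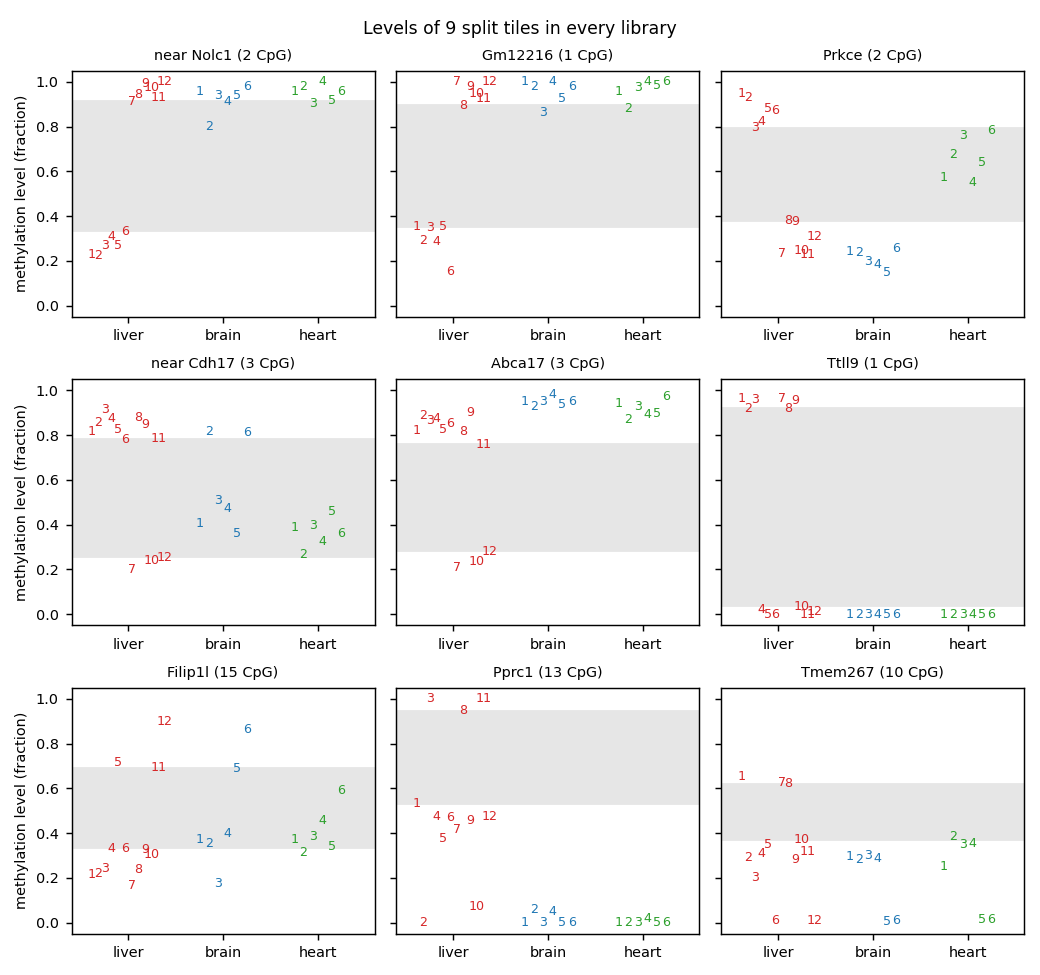
The vertical axis gives the methylation level, each digit marks the library of that number in the table of its tissue, and the grey band spans the gap between the liver sides. Liver (red) falls above and below the band by construction, while brain (blue) and heart (green) lie above it at Gm12216 and near Nolc1 with few exceptions, at 0.0 at Ttll9, and on more than 1 level near Cdh17 (brain), at Filip1l (brain) and at Tmem267.

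The division of a split tile was often repeated by the tiles beside it. The split tiles formed 284 runs, of which 27 had 2 tiles and 1 had 3. In all 29 adjoining pairs both tiles divided the same libraries, and 57 of the 313 tiles adjoined another. Neighbours that were not split tiles were read in the same way, by counting those in which the same libraries lay below the others without overlap. With libraries 1 to 6 low, 43 of 88 adjoining neighbours (48.9%) did so, 42 of 129 (32.6%) at 200 to 500 bp, 9 of 72 (12.5%) at 600 to 1000 bp, 6 of 136 (4.41%) at 1100 to 2000 bp and 19 of 529 (3.59%) at 2100 to 5000 bp, beside 0.442% of all liver tiles. With libraries 7, 10 and 12 low it was 16 of 29 (55.2%), then 10 of 35 (28.6%), and 0 of 25 at 600 to 1000 bp, beside 0.443% of all tiles. Neighbours can share reads and fragments with a split tile, so they are not independent measurements.

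For the tiles of rare divisions 3 of 61 adjoining neighbours (4.92%) were separated in the same way and 10 of 105 (9.52%) at 200 to 500 bp. The share over all liver tiles was not counted for these divisions. Of the 5 tiles with libraries 4 to 6 and 10 to 12 low, 2 had adjoining neighbours, and 0 of these 4 neighbours separated the same libraries. Over all liver tiles the share was 0.182%, and nothing is read from so few neighbours.

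**Figure D4:**
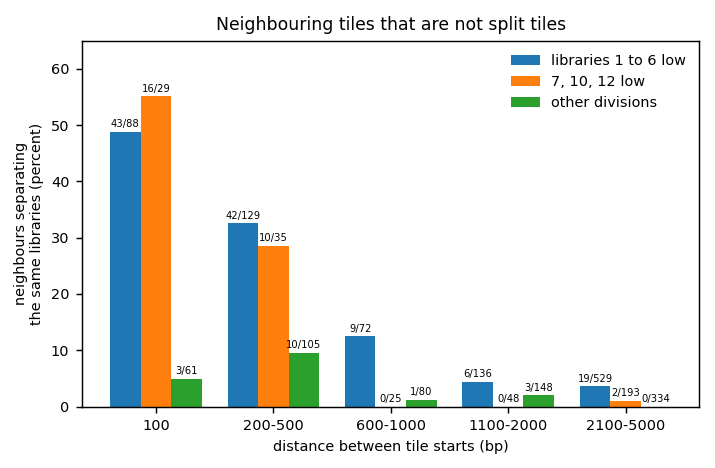
The horizontal axis gives the distance between the starts of a split tile and a neighbour that is not a split tile, and the bars give the percentage of neighbours at which the same libraries lay below the others without overlap, with counts above each bar. The share falls at each step of distance for libraries 1 to 6 low, from 48.9% to 3.59%. For libraries 7, 10 and 12 low it falls from 55.2% and 28.6% to 0 of 25 and 0 of 48 neighbours, with 2 of 193 at the largest distance, and for the rare divisions it stays under 10%.

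Split tiles held fewer CpGs than the liver tiles as a whole. The mean was 2.65 CpGs per tile against 3.26, with a median of 2 in both, and 3.51% of split tiles had 7 or more CpGs against 10.1%. In the 160 tiles with libraries 1 to 6 low the mean was 2.33 and 1 tile had 7 or more. In the 50 tiles with libraries 7, 10 and 12 low the mean was 2.46, and 1 tile had 7 or more. The 93 rare tiles had a mean of 3.25 and 9 tiles with 7 or more (9.68%). Tiles were also searched for CCGG and TCGA, the sites cut by MspI and TaqI, which read the same on both strands and share only their central CG. The enzymes used are not given in the sources used here. CCGG was in 55.0% of split tiles and 58.7% of all, and TCGA in 40.9% and 39.8%. For libraries 1 to 6 low these shares were 47.5% and 48.8%, and for libraries 7, 10 and 12 low 70% and 28%.

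By RefSeq annotation 7 split tiles (2.24%) were in promoters, the 1000 bp upstream of a transcription start, against 7.03% of all liver tiles. Coding sequence held 18 (5.75% against 10.1%), other exons 4 (1.28% against 3.50%), introns 136 (43.5% against 36.3%), and 148 (47.3% against 43.0%) were intergenic. Of the 7 promoter tiles 5 were of rare divisions, and those not yet named belonged to Rpl38, Tm9sf4 and Dand5. Rpl38, the gene of a ribosomal protein, had 0.906 to 0.933 in libraries 1, 8 and 12 and 0.30 to 0.562 in the others (chr11:114668301-114668400). At Tm9sf4 (chr2:153160901-153161000) libraries 2, 3, 9 and 11 had 0.0 to 0.071 and the others 0.40 to 0.67 in a tile made up wholly of repeat-masked sequence. The Dand5 tile is also in intron 1 of Gadd45gip1 (chr8:84832901-84833000), where libraries 2, 3, 9, 10 and 11 had 0.0 to 0.036 and the others 0.33 to 0.537.

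Counts in gene lists were made for genes and 10000 bp around them. The first list held genes expressed differently between the genders in mouse liver together with every member of families that include such genes (Acot, Mup, Cyp2c and others), so a member of it is not itself shown to differ. Of its 142 genes 134 had tiles, which were 0.241% of the liver tiles, and 7 split tiles (2.24%) were among them. At 1977 tiles in all the list is small, and the count was read without a test. These 7 tiles belonged to Cyp7b1, Elovl3, Mup21, Nudt7, Cyp2b13 and, with 2 tiles, Acot11.

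The tile 3163 bp from Cyp7b1, the hydroxylase of oxysterols in the alternative pathway to bile acids, had 0.13 to 0.345 in libraries 1 to 6 and 0.60 to 0.878 in libraries 7 to 12. At Elovl3, a fatty acid elongase, the tile lay 2207 bp from the gene and 6002 bp from its start, in intron 1 of Pitx3 (chr19:46137901-46138000). It had 0.218 to 0.326 against 0.654 to 0.805. Intron 2 of Nudt7, which encodes a peroxisomal hydrolase of coenzyme A, had 0.386 to 0.538 against 0.88 to 0.942 (chr8:114138701-114138800). Near Mup21, a gene of the major urinary proteins, the levels were 0.267 to 0.483 and 0.739 to 0.852 (chr4:62158001-62158100). This tile, 7160 bp from the gene, was wholly repeat-masked, and 55.7% of its 31-base words had further copies. Thus libraries 1 to 6 were the low side at 4 of these tiles and the high side at the Cyp2b13 tile.

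Acot11, an acyl-CoA thioesterase gene, differed from these, since libraries 7, 10 and 12 were low. They had 0.259, 0.414 and 0.451 at chr4:106747801-106747900, in the last exon of Acot11 and of Fam151a on the other strand, and the other libraries had 0.814 to 0.879. The adjoining tile had 0.368 to 0.417 against 0.68 to 1.0. Both split tiles of the growth hormone and STAT5 list, out of 859 liver tiles of its 19 genes (0.105% of tiles, 0.639% of split tiles), were of the same division. At Socs2, whose product dampens growth hormone signalling, the tile lay 190 bp from the gene and 3983 bp from its start. It had 0.245 in library 7, 0.566 in library 10 and 0.468 in library 12, and 0.917 to 0.985 in the rest. Intron 1 of Prlr, the prolactin receptor gene, had 0.296, 0.208 and 0.255 and 0.648 to 0.906 (chr15:10237101-10237200). Of the other lists, imprinted genes had 1383 tiles (0.169% of the liver tiles) and variably methylated and metastable genes 570 (0.0695%). DNA methylation enzymes had 571 (0.0697%). These lists held 0 split tiles. With 0.0382% of all liver tiles split, lists of this size would hold few or none, so nothing is read from these counts.

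The same positions were then read in brain and heart, whose levels the rule did not use. The mice of brain and heart bear the same numbers, which also occur among the liver mice, but the columns could not be matched. Of the 313 split tiles 280 were in the brain table and 281 in the heart table. A gap of at least 0.25 with at least 2 of the 6 libraries on each side was found at 7 of 280 tiles in brain (2.50%), where 0.226% of all tiles in both tables had one, and at 4 of 281 in heart (1.42%), where it was 0.0395%. These were 8 different tiles, 3 of them split in both tissues. Of the 8 tiles 7 were of rare divisions and 6 were in sequence with copies elsewhere. Of the 147 tiles with libraries 1 to 6 low 0 split in brain, as did 0 of 148 in heart. With 3 libraries on each side the counts were 0 in brain and 1 in heart.

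The exception with libraries 7, 10 and 12 low was the tile near Cdh17. Brain libraries 2 and 6 had 0.815 and 0.812 there, and the other 4 had 0.36 to 0.507. Heart had 0.264 to 0.458. In an intergenic repeat at chr16:55654101-55654200 heart libraries 3 and 4 had 0.318 and 0.311 and the others 0.606 to 0.964, while brain had 0.793 to 0.946. At chr2:85643901-85644000, near Olfr1002, and at chr3:82594201-82594300, near Npy2r, both tissues were divided and ranged from 0.0 to 0.95 and from 0.0 to 0.452 in brain. At chr9:3000401-3000500 brain libraries 1 and 2 had 0.021 and 0.023 and the others 0.75 to 1.0, and the tile was not in the heart table.

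Where the liver was divided by libraries 1 to 6, brain and heart mostly had the high level. How often tiles of the whole table have such levels in brain and heart was not counted. The median of the 6 brain libraries was at or above the lowest level of the high side at 124 of 147 tiles, inside the gap at 22 and at or below the highest level of the low side at 1. In heart it was 106 of 148, with 37 inside the gap and 5 at or below. For libraries 7, 10 and 12 low it was 28, 17 and 4 of 49 tiles in brain and 22, 22 and 4 of 48 in heart. The tiles of rare divisions were more evenly placed, with 31, 17 and 26 of 74 in brain and 29, 20 and 26 of 75 in heart. Of the 5 tiles with libraries 4 to 6 and 10 to 12 low, 4 had the low level in brain and 4 in heart. The spread between the 6 libraries at a split tile had a median SD of 0.0554 in brain and 0.0517 in heart.

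**Figure D5:**
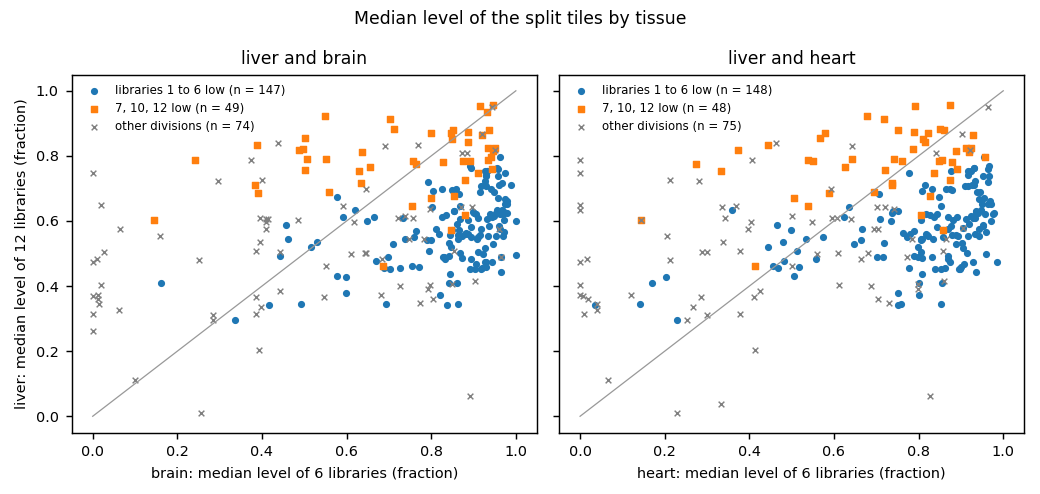
The vertical axis gives the median level of the 12 liver libraries at a split tile and the horizontal axis the median of the 6 brain (left) or heart (right) libraries, with the line of equal levels. Most tiles with libraries 1 to 6 low (circles) lie at the right, below the line, with a median of 0.891 over tiles in brain and 0.857 in heart, and tiles of rare divisions (crosses) are scattered, with 0.463 and 0.412.

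Mean levels were compared between tissues with limma over all tiles common to a pair of tables. A difference was called at a Benjamini-Hochberg adjusted p under 0.05 over all tiles and a size of at least 0.25. Liver levels chose the tiles and place most liver means at an intermediate value, so that the comparisons with liver are given as values and no more is read from their counts. Between liver and brain 115 of 280 split tiles were called, where 9.77% of 775900 tiles were, and 94 of them were lower in liver (background 4.76%) and 21 higher (background 5.01%). Between liver and heart 105 of 281 were called, where 10.8% of 773114 tiles were, with 81 lower in liver (2.87%) and 24 higher (7.93%). These comparisons share the liver libraries. The median difference over the split tiles was -0.21 for liver minus brain and -0.18 for liver minus heart, and over all tiles 0.0028 and 0.035. For tiles with libraries 1 to 6 low, 75 of 147 were called against brain, of which 75 were lower in liver, and 73 of 148 against heart, of which 71 were lower and 2 higher. For the 74 rare tiles 15 were higher in liver than in brain and 13 lower.

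Of the 3 called tiles furthest below brain, 2 lay in repeat-masked sequence. In intron 1 of Dhcr7, the last enzyme of cholesterol synthesis (chr7:143823901-143824000, all of it repeat-masked), 7 liver libraries had 0.0 to 0.083 and 5 had 0.39 to 0.574, while brain had 0.786 to 0.905. The difference was -0.65 ± 0.10 (SE, from the limma fit, as are the errors of the differences that follow). At the Dand5 promoter it was -0.49 ± 0.094, with brain at 0.681 to 0.814. In intron 2 of the receptor phosphatase gene Ptprg (chr14:11865801-11865900) libraries 1 to 6 had 0.25 to 0.306, libraries 7 to 12 had 0.579 to 0.913, brain had 0.921 to 1.0 and heart 0.896 to 0.962. Liver minus brain was -0.49 ± 0.093 there.

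Above brain the largest differences among called tiles were at Fcho2, Hoxb3 and Pprc1. Intron 15 of Fcho2 (chr13:98751301-98751400) lies wholly in repeated sequence. All liver libraries had at least 0.552 there and 5 of 6 brain libraries at most 0.083, and the difference was 0.57 ± 0.13. At Hoxb3 it was 0.52 ± 0.13 and at Pprc1 0.50 ± 0.13. At the Ttll9 tile liver minus brain and liver minus heart were both 0.48 ± 0.19. Since liver levels chose these tiles, no p is given for single tiles against liver.

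Brain minus heart used no liver level, and its fit did not pair the libraries although both tissues bear the same mouse numbers. Here 22 of 271 split tiles were called (8.12%), where 9.17% of all 896477 tiles were, a share near the background over both directions. By direction, 13 were higher in brain (4.80%, background 7.5%) and 9 lower (3.32%, background 1.67%). Intron 2 of Sh3rf1, the gene of a ubiquitin ligase and scaffold (chr8:61236601-61236700), had 0.28 to 0.793 in brain and 0.03 to 0.293 in heart, a difference of 0.49 ± 0.081 (limma, adjusted p = 0.000665). The liver was split there between libraries 2, 3, 10 and 11 (0.0 to 0.042) and the other 8 (0.31 to 0.679). The Prkce tile had 0.148 to 0.255 in brain and 0.548 to 0.781 in heart, a difference of -0.45 ± 0.04 (limma, adjusted p = 9.18e-06). Brain was thus below the high side and near the low liver libraries at Prkce, and heart lay inside the gap.

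At chr1:34378001-34378100, between genes and with libraries 7, 10 and 12 low (0.223 to 0.436 against 0.746 to 0.868), brain had 0.538 to 0.86 and heart 0.229 to 0.391, a difference of 0.45 ± 0.051 (limma, adjusted p = 4.6e-05). Intron 30 of Iqgap2, a scaffold protein gene, had 0.545 to 0.778 in brain and 0.122 to 0.371 in heart, with liver at 0.224 to 0.298 in libraries 1 to 6 and 0.556 to 0.765 in libraries 7 to 12 (chr13:95639501-95639600). Brain minus heart was 0.41 ± 0.048 at this tile (limma, adjusted p = 5.87e-05). In intron 1 of Ttc39c (chr18:12660901-12661000) brain had 0.381 to 0.66 and heart 0.828 to 0.964, a difference of -0.40 ± 0.046 (limma, adjusted p = 5.16e-05). The brain median was thus above the liver gap and the heart median below it at Iqgap2, while at Ttc39c brain lay inside the gap and heart above it.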

How the data were processed

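Methylation was measured by enhanced RRBS in 12 liver, 6 brain and 6 heart libraries. Library preparation, sequencing and mapping were done by a service whose methods are proprietary, and the authors combined CpG calls in tiles of 100 bp with methylKit, keeping those with more than 10 reads in each library. The deposited tables give each level as a fraction with 3 decimals, without counts. The submitters' processing notes name Bismark, methylKit and mm10. All 24 columns were used, as unnumbered samples of their tissue. The labels give mice 75538 and 75541 one gender for liver and the other for brain and heart, which touches no comparison here.

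From these levels the split rule was applied (minimum gap 0.25, minimum 3 libraries on each side; with several such gaps, as in 2 tiles, the widest was used). The positions were checked against mm10: 99.8% of liver tiles held a CpG, and 55.2% after a shift of 100000 bp. Genes were 43783 curated RefSeq transcripts on 19 autosomes, each tile going to the first of promoter, coding, other exon, intron and intergenic. A repeat-masked tile had at least 50 soft-masked bases. Exact copies of 31-base words were counted over the genome. Tissues were compared with limma 3.58.1 (R 4.3.3) on fractions without covariates, and the split rule and limma steps were tested on simulated data (Python 3.11.15, numpy 2.4.6, pandas 2.3.3). Mouse numbers show 1 library per animal in a tissue, so p-values measure the spread between animals. Brain and heart bear the same mouse numbers, and the fits took all libraries as independent.

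The split tiles, gene lists and tests were chosen with earlier results of these data known. Named tiles are the 10 widest gaps, the 5 longest runs, up to 10 in promoters or at starts, the 3 widest of each leading division (a tie made this 4 divisions), up to 10 that also split in brain or heart, the 5 largest called brain minus heart and 3 largest of each sign of liver minus brain, the 5 with most CpGs, 2 on each side of the threshold, and those in listed genes, 55 split tiles in all. Ctif and Xkr7 were named after their values were seen.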

Additional observations from a re-analysis of the deposited data

Results flagged for a closer look

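Among the 104 sets of 6 brain or heart levels at the named split tiles, 10 had 1 library far from the other 5 by Dixon's test at 95%, which chance alone gives in about 1 of 20 sets. In neither tissue was the library apart the same at every tile. In brain the level apart was 1.0 at the Fcho2 tile (chr13:98751301-98751400), where the others had 0.0 to 0.083. The level apart was 0.125 at the Hoxb3 tile (chr11:96346201-96346300) against 0.0 to 0.021, and 0.674 at the second Hao1 tile (chr2:134545701-134545800) against 0.85 to 0.917. At chr19:46100201-46100300 it was 0.98 against 0.92 to 0.93. In heart the level apart was 0.154 at the Fcho2 tile against 0.0 to 0.024, and 0.182 at Tm9sf4 (chr2:153160901-153161000) against 0.556 to 0.747. The level apart was 0.479 at Dand5 (chr8:84832901-84833000) against 0.70 to 0.754, and 0.881 near Cyp7b1 (chr3:18246501-18246600) against 0.926 to 0.941. At chr9:3033301-3033400 it was 0.962 against 0.887 to 0.905, and at Pprc1 (chr19:46056601-46056700) 0.02, where the other 5 were at 0.0. These values are given without a cause, which was not tested.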

How the results depend on the processing

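The number of split tiles depended on the gap, with 566 tiles at 0.20 and 173 at 0.30 in place of 313, and the most frequent division then had 97 tiles at 0.30 in place of 160. With 4 libraries on each side there were 223 tiles, with 2 there were 463, and 271 were present in all 3 tables. Leaving out 1 liver library at a time gave 274 to 360 tiles, of which 252 to 311 were among the 313. Requiring 3 of 6 libraries on each side left 0 of 7 tiles split in brain and 1 of 4 in heart. The counts called by limma stayed within 1.5 times under a logit scale, a trend with robust variances and, for brain minus heart, 1 fit of all 24 libraries (19 in place of 22). For single named tiles 339 values under these alternatives kept their side of the threshold, 13 passed it newly and 9 no longer did, with 0 changes of sign among called values. The median of 2 CpGs and the shares by annotation changed little with a promoter of 2000 bp or 1 tile per run. No paired analysis was possible because the level columns carry no mouse number. Brain and heart bear the same mouse numbers, which also occur among the liver mice. Without coverage, a level near the minimum of reads cannot be told from one of high depth.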
